A study of Mus musculus with 8 samples.

Results

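The genes described here carry the G protein signals that confine lymphocytes within lymph nodes or release them from it. They are Gna13, Ptger2, Ptger4, Rgs1, Rgs2, Rgs10, Rgs16, Rgs19, Gnai2 and S1pr1. All 10 genes were on the array, through 21 probe sets of the 22626 that are not controls. A probe set is a group of short probes that reports 1 transcript region. The array annotation gave each of the 21 to a single gene. Gna13 had 6 probe sets and Rgs16 had 3, whereas Ptger4, Rgs2, Rgs19 and Gnai2 had 2 each and Ptger2, Rgs1, Rgs10 and S1pr1 had 1 each. The members were chosen by their ratios in naive, day 7 and day 28 cells, together with their known roles. All 3 comparisons were in view in that choice, so the values are a description and support nothing beyond themselves.

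Lymph nodes of B10.BR mice, an inbred strain, were made into cell suspensions and sorted by flow cytometry, and total RNA (10 µg, made into biotin-labelled cRNA) was hybridised to Affymetrix mouse arrays. The groups were naive mice (3 arrays), mice 7 days after immunization (3 arrays) and mice 28 days after immunization (2 arrays). The labels give neither the immunogen, the sorted population, the age and sex of the mice, nor whether replicates were separate animals, so the errors below measure the spread between these arrays. In such sorted pools, fewer cells of a type and less RNA per cell cannot be told apart.

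The deposited values behave as ratios. A probe set's signal on an array is divided by that probe set's median across all 8, or, for dim probe sets, by a floor that all of them share. A ratio of 1 therefore marks the median or the floor, levels of different genes cannot be compared, and folds against values near the floor understate the change in RNA. Of the 21 probe sets, 16 were scaled to their own median and 5 to the floor. Differences are given as log2 of one group over the other with the standard error (SE) of a limma fit over the 8 arrays. A probe set was tested if its ratio reached 1 on at least 2 arrays, which held for 20 of the 21, and called at a Benjamini-Hochberg adjusted p under 0.05 over the 13042 probe sets tested.

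Group was not the only thing that set arrays apart. The bacterial spike-in controls added at hybridisation had low median log2 ratios on naive replicate 1 and the day 7 arrays (-1.70 to -1.03), and high ones on naive replicates 2 and 3 and the day 28 arrays (0.64 to 1.41). Differences inside the low set (day 7 minus naive replicate 1) and inside the high set (day 28 minus naive replicates 2 and 3) are given beside the members as the within-set differences, and no set holds both day 7 and day 28 arrays. The arrays also differed in sex-linked RNA, since the Y-linked gene Eif2s3y had a log2 ratio of 2.87 for naive replicate 1, of 3.70 for day 28 replicate 1, and of -0.59 to 0.24 for the other arrays. Xist, the RNA of the inactive X chromosome, was higher on every day 7 array than on any naive array by 2 of its 3 probe sets, with log2 ratios by one of these of 0.98 to 1.84 against -5.58 to -2.17, and of -5.29 and 0.83 at day 28. The part of sex in the day 7 differences was not tested. T cell markers overlapped between the groups, with median log2 ratios per array from -0.34 to 0.66 in naive, -0.77 to 1.37 in day 7 and -0.50 to 0.14 in day 28 cells. B cell markers did not. Their median was 3.42 and 3.90 on the day 28 arrays and between -0.53 and 0.05 on all others, and 7 of 9 tested B cell probe sets were called higher at day 28 than in naive cells. The CD20 gene Ms4a1 reached ratios of 117 and 36.7 at day 28. CD8 markers were also high there (median log2 ratios of 2.67 and 4.14, against -0.37 to -0.06 elsewhere), and 1 of 2 tested was called. Of 2 tested NK cell probe sets, 1 was called higher at day 7, that of Nkg7, which cytotoxic T cells also express. At day 28 Nkg7 was 9.55-fold above naive cells and was not called. The monocyte markers were not called either. Their median log2 ratio per array was -0.71 to -0.06 in naive, -0.33 to 0.30 in day 7 and 0.17 and 0.71 in day 28 cells. Adgre1 and Fcgr3 overlapped between all groups, but Lyz2 had ratios of 43.0 and 4.57 at day 28 against 0.653 to 0.893 in naive cells. By 1 of its 3 probe sets, Csf1r was 0.650, 6.38 and 3.58 at day 7 against 0.340 to 0.540. What part these markers have in the results was not tested.

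G protein-coupled receptors steer lymphocytes by switching on a G protein alpha subunit. Prostaglandin E2 acts through the receptors EP2 and EP4, which couple to the stimulatory G protein and raise cyclic AMP. Sphingosine 1-phosphate (S1P) draws lymphocytes towards efferent lymph through S1pr1 and the inhibitory G protein, whose main form in lymphocytes contains Gnai2. The alpha subunit encoded by Gna13 halts migration and is known for keeping B cells and follicular helper T cells inside germinal centres. RGS proteins speed up the GTPase of alpha subunits and thereby shorten the signal.

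Of the 10 genes, 2 had probe sets called in the comparisons with day 7 cells, Ptger2 and Gna13. Ptger2 was 14.3-fold higher at day 7 than in naive cells and Gna13 8.19-fold by the probe set with the largest difference, and both fell again by day 28. Rgs1, and Rgs16 by 1 of its 3 probe sets, were also higher on every day 7 array than on any naive array, by 2.77-fold and 2.82-fold, but were not called. Ptger4 was lowest on the day 7 arrays by 1 of its 2 probe sets, and was not called. S1pr1, Rgs10, Rgs19 and Rgs2 overlapped between all 3 groups. In all, 3 of 20 tested member probe sets were called higher at day 7 than in naive cells (1.06% of all probe sets tested) and 0 lower (0.107%), where 1.17% of all were called in either direction. Since the choice of members used this comparison, nothing is read from these shares.

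**Figure D1:**
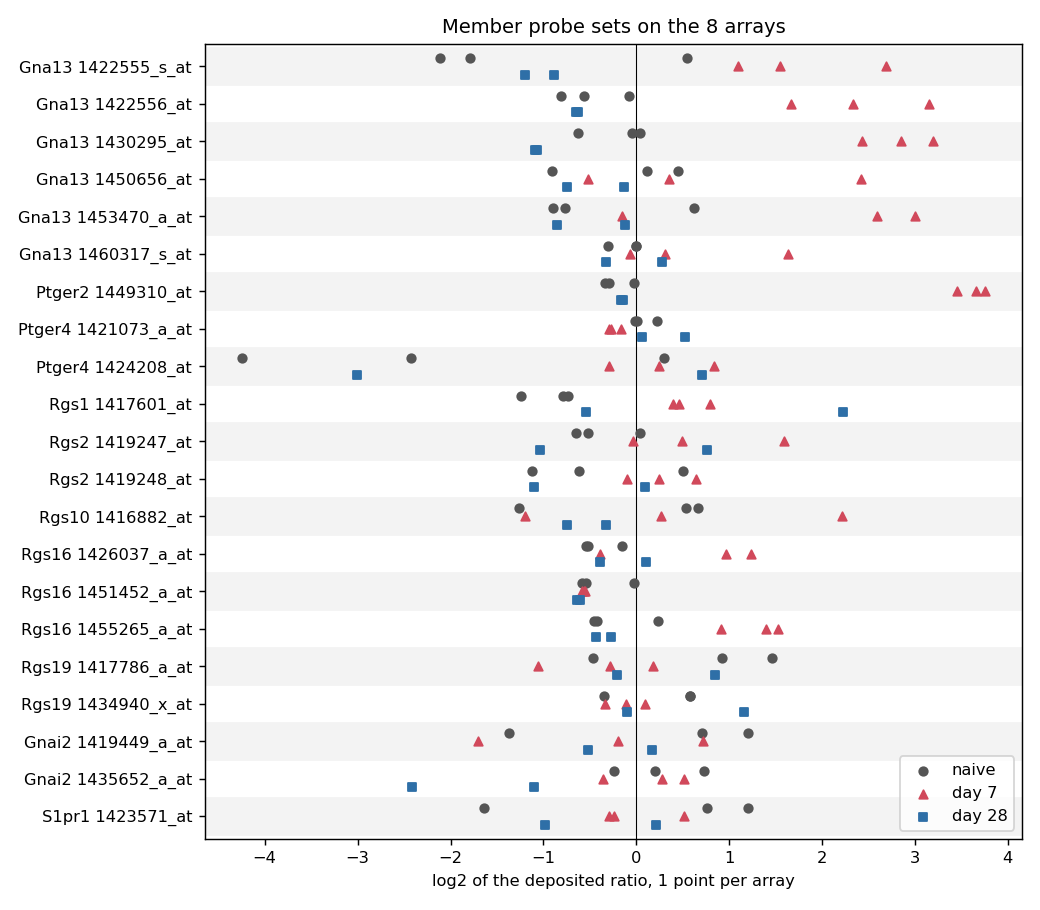
Log2 of the deposited ratio (x axis) of the 21 member probe sets (y axis), with 1 point per array for naive (circles), day 7 (triangles) and day 28 (squares). The day 7 triangles of Ptger2, of 3 Gna13 probe sets and of Rgs16 1455265_a_at lie to the right of every other point of their row.

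Ptger2, Gna13 by 3 of its 6 probe sets and Rgs16 by 1 of its 3 were higher on every day 7 array than on any naive array. So was Rgs1, for which no upstream sequence was found. The regions upstream of Ptger2, Gna13 and Rgs16 are shown, so that what they share in sequence can be seen. They are the 250 bases before the start site, from RefSeq (GRCm38.p6), written 5′ to 3′ on the gene's strand, which is the plus strand for all of them. Capitals mark matches, on either strand, to 6 motifs: the cyclic AMP response element TGACGTCA, its shorter core TGACG, the AP-1 site TGANTCA, the E-box CACGTG, the GC box GGGCGG and the core TTCNNNGAA that BCL6 and STAT factors bind. The shorter core lies within the full element.
Ptger2, chr14:44987861-44988110: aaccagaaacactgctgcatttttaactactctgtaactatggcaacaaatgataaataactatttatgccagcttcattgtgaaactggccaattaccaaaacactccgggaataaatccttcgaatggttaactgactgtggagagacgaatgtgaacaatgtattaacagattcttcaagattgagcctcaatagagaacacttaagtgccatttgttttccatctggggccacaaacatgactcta
Gna13, chr11:109362544-109362793: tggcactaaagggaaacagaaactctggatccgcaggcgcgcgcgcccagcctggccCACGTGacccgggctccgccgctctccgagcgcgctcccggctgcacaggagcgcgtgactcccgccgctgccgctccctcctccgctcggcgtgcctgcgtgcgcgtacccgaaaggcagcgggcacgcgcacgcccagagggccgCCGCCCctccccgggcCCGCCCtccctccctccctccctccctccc
Rgs16, chr1:153740103-153740352: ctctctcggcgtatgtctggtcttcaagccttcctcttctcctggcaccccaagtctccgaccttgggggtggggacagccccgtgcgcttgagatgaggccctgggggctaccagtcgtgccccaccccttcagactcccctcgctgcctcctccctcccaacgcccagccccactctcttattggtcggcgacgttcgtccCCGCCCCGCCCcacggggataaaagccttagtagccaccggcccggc

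The 3 windows differ in composition. G and C make up 38% of the Ptger2 window, 76% of that of Gna13 and 66.4% of that of Rgs16, against a median of 52.4% over 32851 windows of the same length. The Ptger2 window held none of the 6 motifs. That of Gna13 held 1 E-box, found in 6.02% of all windows, and 2 GC boxes, found in 32.7%, and that of Rgs16 held 2 overlapping GC boxes. The window of Rgs2, a gene known to respond to cyclic AMP, held 2 copies of TGACG, found in 17.8% of windows. No window of a member held the full element TGACGTCA (1.55% of windows), TGANTCA (6.75%) or TTCNNNGAA (7.02%). These are matches of letters only. Windows were found for 7 of the 10 genes; those without one are Rgs1, Gnai2 and S1pr1.

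Ptger2 encodes EP2, a prostaglandin E2 receptor that raises cyclic AMP. Naive cells gave ratios of 0.789, 0.814 and 0.984, day 7 cells 13.5, 12.6 and 11.0, and day 28 cells 0.906 and 0.890. All day 7 arrays lay far above the others, and the naive and day 28 arrays overlapped near the floor. The log2 difference was 3.84 ± 0.25 (SE, 3 arrays per group) at day 7 against naive, -3.78 ± 0.28 at day 28 against day 7 and 0.07 ± 0.28 at day 28 against naive. The day 7 difference was as large inside the low spike-in set (3.96). It was called under all 16 alternative settings in which it was tested, the stricter filter on dim probe sets leaving it out. The fall to day 28 was called under 15 of 16, the exception being a term for the spike-in split, where the difference was -3.96.

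Ptger4 encodes EP4, the other prostaglandin E2 receptor that raises cyclic AMP. Probe set 1421073_a_at had ratios of 0.992, 1.01 and 1.16 in naive cells, 0.892, 0.826 and 0.814 at day 7, and 1.04 and 1.44 at day 28. Here the day 7 arrays were the lowest, by a log2 difference of -0.32 ± 0.26 against naive. Probe set 1424208_at ran from 0.0527 to 1.23 in naive cells, from 0.814 to 1.79 at day 7, and was 0.124 and 1.64 at day 28. Both the naive and the day 28 arrays spread widely, with an SD of 2.29 and 2.63 on the log2 scale. Its day 7 difference was 2.39 ± 1.27 over all arrays and -0.03 within the low spike-in set. The difference between EP2 and EP4 in response was not tested.

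S1pr1 encodes the S1P receptor through which lymphocytes leave the node. Naive cells gave ratios of 2.31, 1.70 and 0.320, day 7 cells 1.43, 0.817 and 0.845, and day 28 cells 1.16 and 0.505. The lowest and the highest value were both naive, so the groups overlapped throughout. The log2 difference was -0.11 ± 0.75 at day 7 and -0.50 ± 0.83 at day 28, each against naive. The within-set differences were -1.21 and 0.05. At day 7 the difference ran from -1.21 to 0.43 over the alternative settings, the upper end without naive replicate 1.

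Gna13 encodes the alpha subunit that restrains migration. By probe set 1430295_at its ratio was 0.972, 1.03 and 0.648 in naive cells, 7.20, 5.38 and 9.18 at day 7, and 0.469 and 0.478 at day 28. The day 7 arrays lay far above the naive ones, and both day 28 arrays lay below all naive arrays. The log2 difference was 3.03 ± 0.32 at day 7 against naive (2.87 within the low spike-in set), -3.90 ± 0.36 at day 28 against day 7, and -0.87 ± 0.36 at day 28 against naive (-0.79 within the high set). Probe set 1422556_at gave a similar picture, with ratios of 0.946, 0.572 and 0.675 in naive cells, 8.90, 3.16 and 5.04 at day 7, and 0.645 and 0.636 at day 28. Its log2 difference was 2.87 ± 0.42 at day 7 (2.46 within the low set) and -3.03 ± 0.47 at day 28 against day 7. These were the 2 Gna13 probe sets called, in both comparisons.

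The 6 Gna13 probe sets did not report one size of change. Probe set 1422555_s_at, whose probes can be shared with other transcripts, had ratios of 1.46, 0.231 and 0.289 in naive cells, 6.46, 2.14 and 2.92 at day 7, and 0.436 and 0.540 at day 28. The naive arrays disagreed here, and the day 7 difference of 2.90 ± 0.73 was 1.23 within the low set. Probe set 1453470_a_at was 7.995 and 6.02 on day 7 replicates 1 and 3 but 0.898 on replicate 2, inside the naive range of 0.538 to 1.54. Probe set 1450656_at was 5.33 on day 7 replicate 1 and 0.698 and 1.28 on the other two day 7 arrays, against 0.534 to 1.37 in naive cells. In 1460317_s_at the day 7 ratios were 3.09, 1.24 and 0.957 against 0.808 to 1 in naive cells. Over the 6 probe sets the day 7 difference ran from 0.73 to 3.03, all positive, and in 3 of them the groups did not overlap. Among the day 7 arrays, replicate 1 was highest in 5 and replicate 2 lowest in 5 of the 6.

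Gnai2 encodes the inhibitory alpha subunit through which chemokine receptors and S1pr1 signal. Probe set 1435652_a_at had ratios of 0.847, 1.65 and 1.15 in naive cells, 0.781, 1.43 and 1.21 at day 7, and 0.187 and 0.465 at day 28. Naive and day 7 arrays overlapped, and both day 28 arrays lay below all of them. The log2 difference was -1.99 ± 0.51 at day 28 against naive (-2.23 within the high set) and -1.91 ± 0.51 at day 28 against day 7, and neither was called. The size at day 28 against naive was 1.34 without day 28 replicate 1 and 2.65 without day 28 replicate 2, in the same direction. The other probe set, 1419449_a_at, ran from 0.388 to 2.30 in naive cells, from 0.306 to 1.64 at day 7, and was 1.13 and 0.699 at day 28, so all groups overlapped. Its day 7 difference was -0.58 ± 0.81, and 0.97 within the low set. The B cell markers given above were high on the day 28 arrays, where 1435652_a_at was low, and their part was not tested.

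**Figure D2:**
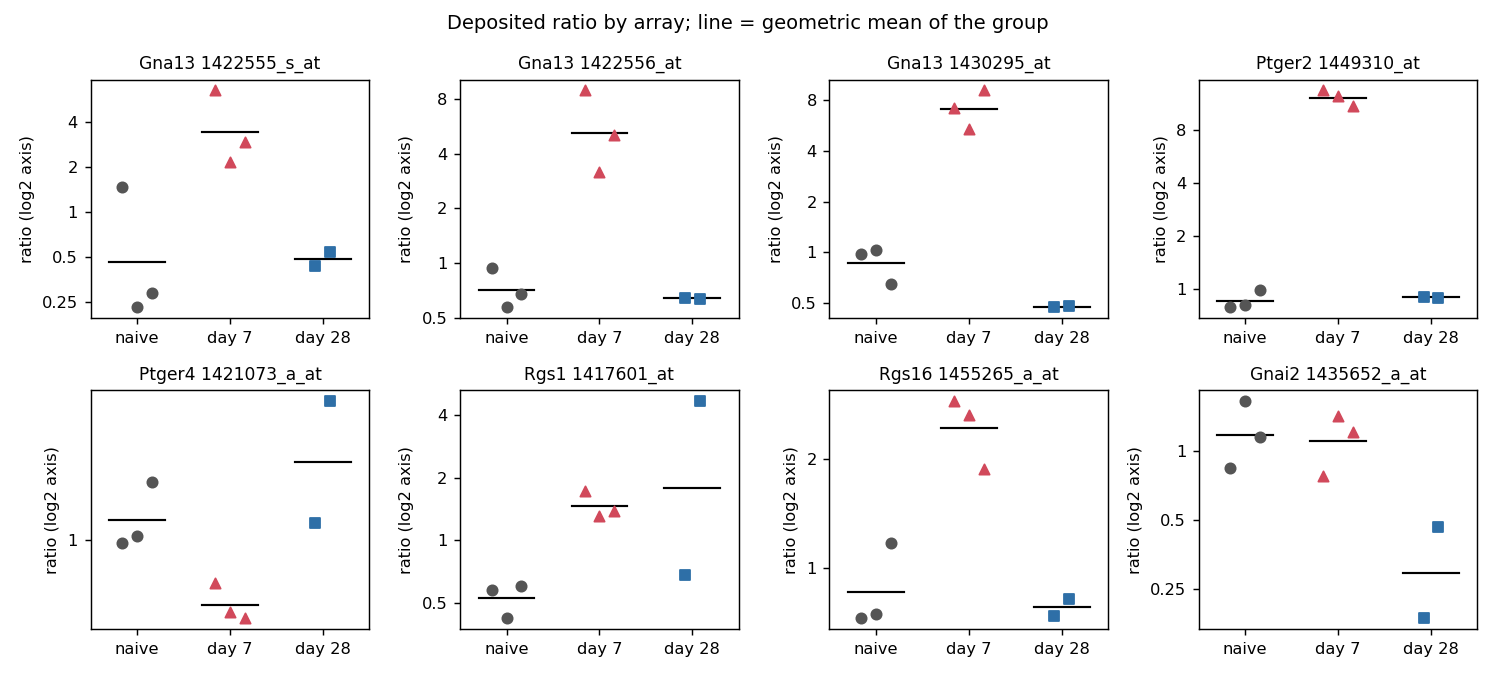
Deposited ratio per array (y axis, log2 scale) by group (x axis) for the 8 tested member probe sets whose groups did not overlap in at least 1 comparison, with a line at the geometric mean of each group. Ptger2 runs from 11.0 to 13.5 at day 7 and below 1 elsewhere, whereas Rgs1 at day 28 is 0.685 on one array and 4.67 on the other.

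Rgs1 encodes an RGS protein that damps chemokine receptor signalling through the inhibitory G protein. Its ratio was 0.580, 0.424 and 0.602 in naive cells, 1.73, 1.32 and 1.38 at day 7, and 0.685 and 4.67 at day 28. Every day 7 and day 28 array lay above every naive array, but the day 28 arrays lay on either side of the day 7 ones. The log2 difference against naive was 1.47 ± 0.64 at day 7 and 1.76 ± 0.71 at day 28 (1.34 and 1.82 within the sets). The day 28 difference rested on replicate 2, since it was 0.37 without that array.

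Rgs16, which also damps inhibitory and chemokine signals, had 3 probe sets. Probe set 1455265_a_at had ratios of 0.730, 0.748 and 1.18 in naive cells, 2.89, 2.64 and 1.88 at day 7, and 0.741 and 0.825 at day 28. Its day 7 arrays lay above all others, with a log2 difference of 1.49 ± 0.32 against naive (1.73 within the low set) and -1.64 ± 0.35 at day 28 against day 7. It was not called, except without naive replicate 1 (both comparisons) and, at day 28 against day 7, in a fit of those 2 groups alone. By 1426037_a_at, day 7 replicates 1 and 3 had ratios of 1.96 and 2.36 and replicate 2 had 0.762, inside the naive range of 0.689 to 0.897. The third, 1451452_a_at, stayed between 0.641 and 0.983 on all arrays and was the 1 member probe set not tested.

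Rgs2, which acts on signals of Gq and on adenylyl cyclase, overlapped between groups in both probe sets. By 1419247_at the ratios were 1.03, 0.696 and 0.639 in naive cells, 3.02, 0.975 and 1.41 at day 7, and 1.70 and 0.487 at day 28. The day 7 difference was 1.06 ± 0.58, and 0.61 without day 7 replicate 1. By 1419248_at it was 0.68 ± 0.51, and -0.24 within the low set.

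Rgs10, a small RGS protein of the inhibitory G protein, ran from 0.417 to 1.58 in naive cells, from 0.436 to 4.65 at day 7, and was 0.597 and 0.797 at day 28. Its day 7 difference of 0.45 ± 0.88 turned to -0.44 without day 7 replicate 1 and was 1.69 within the low set. Rgs19 had ratios from 0.726 to 2.75 in naive cells, 0.482 to 1.14 at day 7, and 1.80 and 0.865 at day 28 by 1417786_a_at. Its day 7 difference was -1.02 ± 0.58 by this probe set and -0.39 ± 0.43 by 1434940_x_at (-1.31 and -0.70 within the low set). Neither gene separated the groups, and none of these probe sets was called in any of the 3 comparisons.

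**Figure D3:**
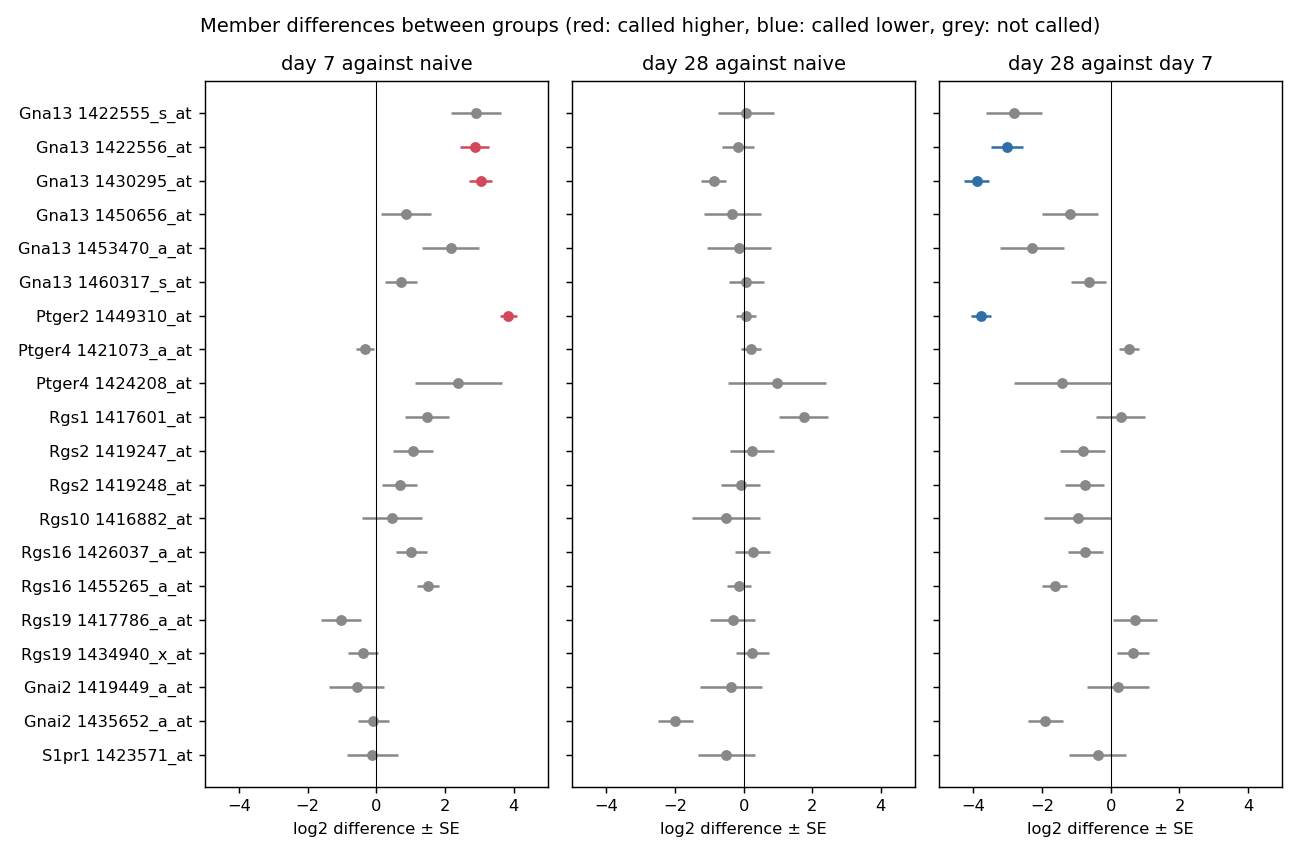
Log2 difference between groups (x axis; dots, with bars of 1 SE) for the 20 tested member probe sets in the 3 comparisons, which share arrays. Red and blue mark the probe sets called higher and lower, and the same 3 probe sets, 2 of Gna13 and that of Ptger2, are marked at day 7 against naive and at day 28 against day 7.

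The 3 comparisons share arrays, so their values are given side by side and are not independent. At day 7 against naive, the member median was a log2 difference of 0.94, against 0.11 over all probe sets tested, and 14 of 20 were positive. The median and the count are over probe sets, not genes, and all 6 of Gna13 were among the 14. In 6 of the 20 the day 7 arrays lay above all naive arrays (13.4% of all tested) and in 1 below (8.61%). At day 28 against naive the member median was -0.11, against -0.05 over all. There limma called 0 higher (0.268% of all) and 0 lower (0.0537%), 0.322% of all being called in either direction. At an unadjusted limma p under 0.05 there were 1 higher and 2 lower at day 28 against naive. The same threshold gave 6 higher and 0 lower at day 7 against naive, and 0 higher and 7 lower at day 28 against day 7. The share of all probe sets at that threshold was not taken, so nothing is read from these unadjusted counts. Between day 28 and naive arrays the groups did not overlap in 1 that was higher (7.76%) and 2 that were lower (9.88%). At day 28 against day 7 the median was -0.89, against -0.16 over all, with 3 of 20 called lower (0.882%) and 0 higher (0.422%), and 1.3% of all called in either direction. There the day 28 arrays lay below all day 7 arrays in 6 (29.7%) and above in 1 (15.2%). Of the 21 probe sets, 13 had their highest value on a day 7 array, and 9 of the 13 on day 7 replicate 1. All 6 of Gna13 were among the 13. The same count was not made over all probe sets, so nothing is read from it.

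Other genes of the pathway, listed from general knowledge, were measured in the same fit. The list holds 104 genes, of which 82 were on the array through probe sets of a single gene, and 74 probe sets of 46 genes were tested. At day 7 against naive 1 of the 74 was called higher (1.06% of all probe sets tested) and 0 lower (0.107%). This was 1 of the 2 probe sets of Gng2, a gamma subunit of G proteins. Its ratios were 0.941, 0.520 and 0.739 in naive cells, 3.96, 3.41 and 2.33 at day 7, and 0.781 and 1.06 at day 28. The other Gng2 probe set was too dim to be tested. There the groups overlapped, at 0.512 to 0.551 in naive cells and 0.489 to 0.632 at day 7, a log2 difference of 0.08. In the tested probe set all day 7 arrays lay above the rest, and it rose by a log2 difference of 2.15 ± 0.35 (limma adjusted p = 0.0404). It was not called without either naive replicate 2 or 3, any day 7 array or any day 28 array. At day 28 limma called 0 of 74 against naive (0.322% of all probe sets tested) and 0 of 74 against day 7 (1.3%). At an unadjusted limma p under 0.05 there were 1 higher and 4 lower against naive, and 2 higher and 5 lower against day 7. The same threshold gave 7 higher and 12 lower at day 7 against naive. The share of all probe sets at that threshold was not taken, so nothing is read from these unadjusted counts. The list's median at day 7 was -0.11, against 0.11 over all probe sets tested.

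By role, the list's probe sets for S1P receptors, metabolism and regulators had a median log2 difference of -0.84 at day 7 against naive (13 tested, 0 called). The medians of the other roles were 0.21 for G protein subunits (13 tested), 0.21 for effectors of G12 and G13 (14), 0.07 for other RGS proteins (5), -0.45 for prostaglandin synthesis and receptors (5), 0.33 for cyclic AMP (19), -1.26 for receptor desensitisation (4) and -1.04 for other positioning receptors (1). Of these, 1 probe set was called, that of Gng2. The 14 probe sets listed as effectors include those of Gsn, which severs actin and is not a direct effector of G12 or G13.

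Single genes of the list that act beside the members are given here, chosen after their values were seen. S1pr4, another S1P receptor of lymphocytes, had ratios of 2.66, 3.12 and 2.03 in naive cells, 0.720, 1.21 and 0.792 at day 7, and 0.630 and 0.731 at day 28. Unlike S1pr1 it did not overlap between naive and later cells, with log2 differences of -1.54 ± 0.32 at day 7 (limma adjusted p = 0.0802) and -1.92 ± 0.36 at day 28 (limma adjusted p = 0.136). Klf2, a transcription factor known to switch on S1pr1, had ratios of 0.713, 1.78 and 2.42 in naive cells, 0.503, 0.535 and 0.686 at day 7, and 1.29 and 1.94 at day 28. Its day 7 difference was -1.35 ± 0.47 (limma adjusted p = 0.239), or -0.32 within the low set. Arhgef1, a direct effector of Gna13, had ratios of 0.932, 5.14 and 2.12 in naive cells, 0.426, 0.384 and 0.383 at day 7, and 1.07 and 2.07 at day 28. Its difference at day 7 was opposite in sign to that of Gna13, at -2.45 ± 0.60 (limma adjusted p = 0.119), or -1.23 within the low set. The 14 tested probe sets listed as effectors, that of Arhgef1 included, had a median of 0.21. They include those of Gsn, which severs actin and is not a direct effector of G12 or G13. The Rhoa probe sets gave 0.78 and 0.67, those of Rock1 -0.05 to 2.12, of Arhgef12 -0.47 and 0.51, and of Gsn -0.30 to 0.36. Within the low set these were -0.26 and 0.57 for Rhoa, -0.51 to 0.81 for Rock1, -1.51 and -0.86 for Arhgef12, and -1.45 to -0.24 for Gsn. The Rock1 probe set with 2.12 had -0.03 there. S1pr4, Klf2 and Arhgef1, all 3 lower at day 7 than in naive cells by their means, were not called.

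The genes whose profile over the 8 arrays was most like that of a member were looked up for the member probe set with the largest difference in each comparison. For Ptger2 they were Cd160 (Pearson r = 0.998), Plagl1 (r = 0.994) and Gpm6b (r = 0.993), over 8 arrays and among 11790 probe sets. For Gna13 1430295_at they were Stx6 (r = 0.993), Adat2 (r = 0.976) and Tpi1 (r = 0.975). For Gnai2 1435652_a_at they were Aprt (r = 0.978), Serf2 (r = 0.957) and Selenow (r = 0.955). The points share arrays and groups, and the best of so many profiles over 8 arrays is high by selection. Along the chromosome, Rgs2, Rgs13 and Rgs1 lie next to one another among protein-coding genes, and Ptger2 lies next to the prostaglandin D2 receptor gene Ptgdr. Ptgdr, unlike its neighbour Ptger2, stayed between 0.557 and 0.964 on all arrays and was too dim to be tested.

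**Figure D4:**
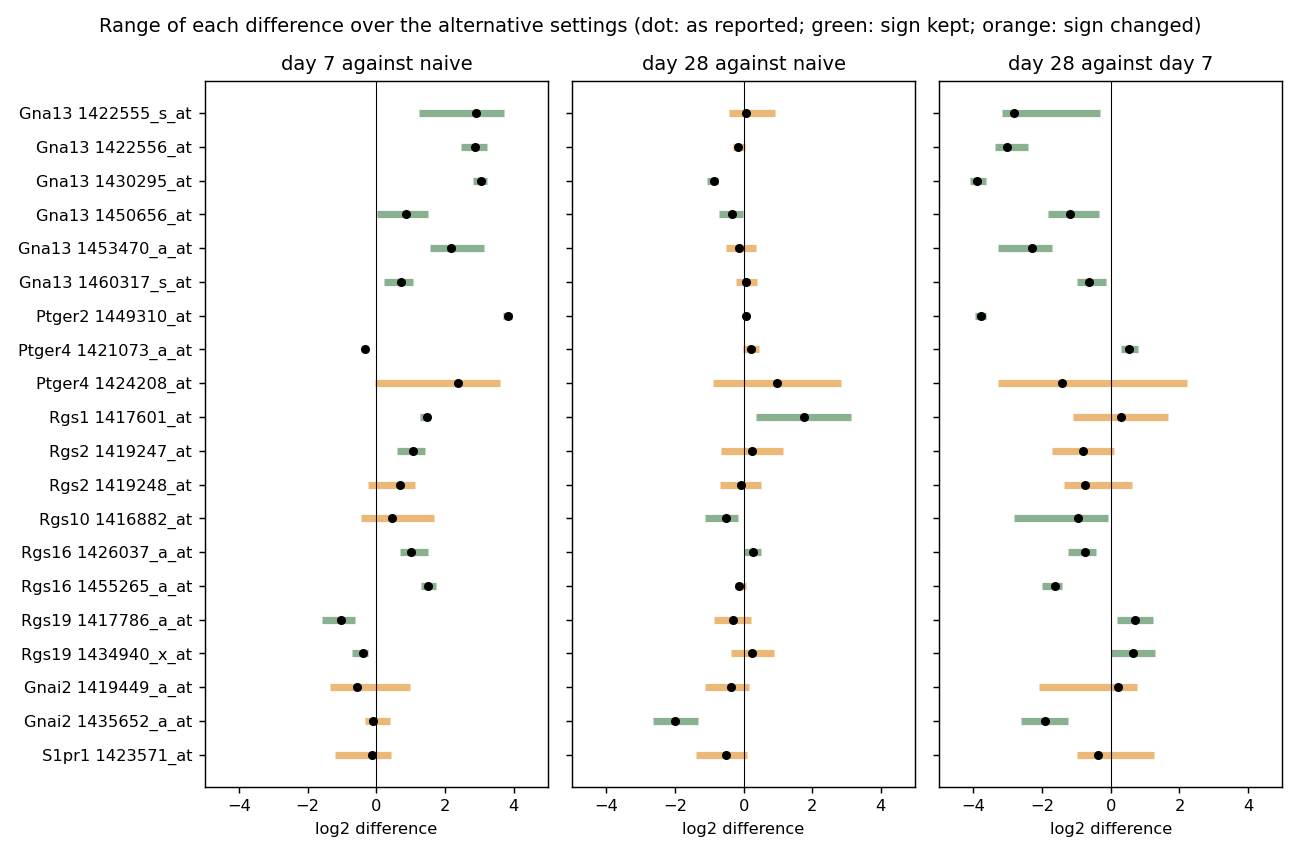
Range of each member's log2 difference (x axis) over the alternative settings, with a dot at the reported value, for the 3 comparisons. Green bars keep their sign and orange bars do not, and those of Ptger2 (3.69 to 3.96) and Gna13 1430295_at (2.83 to 3.23) at day 7 against naive are short and far from 0.

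The calls differed in how far they depended on single arrays. Gna13 1430295_at was called at day 7 against naive under 13 of 17 settings, and lost its call without naive replicate 2, without day 7 replicate 3, with the spike-in term and with the replicate number as a block. Its fall from day 7 to day 28 was called under 14 of 17, and not without day 28 replicate 1, with the spike-in term or with the block. Gna13 1422556_at was called under 6 of 16, and lost its call without naive replicate 2 or 3, without day 7 replicate 3 and without either day 28 array, among others. Naive replicate 1 lay with the day 7 arrays in its spike-in signal and along the first principal component. Without this array, 5 of 20 member probe sets were called higher at day 7 against naive. Of all 13042 tested, 1516 were then called higher instead of 138, and 1727 in either direction instead of 152. The 2 member probe sets added were Gna13 1422555_s_at and Rgs16 1455265_a_at.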

How the data were processed

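RNA of sorted lymph node cells was measured on 8 arrays (3 naive, 3 at day 7, 2 at day 28). The authors deposited 1 table of 22690 probe sets holding a linear ratio per array. GCRMA is named, with no version, per the submitters' processing notes. How the ratios were scaled is inferred, since no source used here gives it: for 47.9% of probe sets the 8 values have 1 as their median (tolerance 0.0015), and for none is it higher. Ratios run from 0.0153 to 117. The number of arrays limits the precision.

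Log2 ratios were fitted in limma 3.58.1 (R 4.3.3) with 1 mean per group over all 8 arrays and empirical Bayes moderation. The two-sided p-values were adjusted by Benjamini-Hochberg. Tested were the 13042 of 22626 probe sets whose ratio reached 1 on 2 or more arrays. The 64 control probe sets were left out. The script was tested on simulated data. Of the 22626, 20380 probe sets carried 1 gene symbol. Every probe set of a member was described, and none was chosen to stand for its gene. Of the pathway list, genes with a called probe set were named, plus S1pr4, Klf2 and Arhgef1, chosen after their values were seen, as were Nkg7, Eif2s3y and Xist.

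The members and lists were chosen with earlier results of these data known. For genes of like pattern, the rule took the 3 highest Pearson correlations per member probe set. Alternatives were no filter, a median of 1 as filter, median centring, quantile normalization, a pseudocount of 0.1, a trended and robust prior variance, a fit of the 2 groups alone, the replicate number as a block, a spike-in term, differences within the spike-in sets, and leaving out each array. Upstream sequences are those of RefSeq (GRCm38.p6), and coordinates of the probe sets were not used.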

Additional observations from a re-analysis of the deposited data

How the results depend on the processing

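Of the 20 tested member probe sets, 14 kept the sign of their difference under every alternative run at day 7 against naive, 7 at day 28 against naive and 14 at day 28 against day 7. No called difference changed sign. Over all genes, 152 probe sets were called at day 7 against naive, 42 at day 28 against naive and 170 at day 28 against day 7. With no filter the first was 94. With the stricter filter these counts were 76, 26 and 62, with trended and robust variance 54, 19 and 52, with only the 2 groups compared 68, 0 and 591, and with the replicate number as a block 16, 9 and 15. The spike-in term gave 14 at day 7 against naive and 0 at day 28 against day 7. Within the high spike-in arrays 0 were called at day 28 against naive. Leaving out each array in turn gave 17 to 1727, 2 to 57 and 25 to 810. Where this left 1 day 28 array, that array was assumed to vary like the other groups.

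Of the pathway list, 1 probe set was called at day 7 against naive. It was 0 with no filter, the stricter filter, trended and robust variance, only the 2 groups, the replicate block and the spike-in term. It was also 0 without naive replicate 2, naive replicate 3 or any day 7 array. Without naive replicate 1 it was 13 of 74, where 1727 of all 13042 tested were called. At day 28 against naive the list had 0 called, 1 with the spike-in term and 1 without naive replicate 1. In each of these 2 settings 57 of all 13042 were called. At day 28 against day 7 it had 0, 1 with quantile normalization and 1 with only the 2 groups compared. Without naive replicate 1 it had 2, where 810 of all 13042 were called. The cause was not tested.

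The replicate numbers do not pair the arrays by the labels. Deviations from the group means correlated from -0.36 to 0.17 between same-numbered arrays, over 0.1 in 4 of 7 pairs, and 2 of 8 arrays correlated best with their own number. With the block, Ptger2 was the 1 member called, in both comparisons with day 7 arrays. Median centring and quantile normalization moved the median over all probe sets at day 7 against naive from 0.11 to 0.02 and -0.00093, and kept the 3 member calls in both.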
